A study of Mus musculus with 3 samples.

Results

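Tfap2c, Prdm1, Prdm14, Tcl1, Tdh, Dppa3, Kit and Kitl are 8 genes of early mouse germ cells and of their survival signal, and their signals were followed in the male gonad of Cyp26b1-/- embryos. The 8 were chosen on signals of these same arrays, namely the change in level between the stages described here, so their levels and stage differences are given as a description with no test. Probes were found for 7 of the 8, out of 16620 genes named on the arrays, of which 13484 were measured well enough to be tested. Prdm14 matched no probe, and no value is given for it.

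The samples were gonads of male embryos homozygous for the Cyp26b1 knockout, of the MCH mouse line, taken at E12.5, E13.5 and E14.5. There were 2 arrays per stage, given as biological duplicates in the series text. Every array carried the knockout, control embryos were not analysed here, and the stages are therefore compared with each other only. The E12.5 pair was hybridised on a different slide from the 4 later arrays, so in a comparison with E12.5 the stage and the slide cannot be told apart, whereas E14.5 and E13.5 shared a slide. Between 65.3% and 70.1% of the probes on an array exceeded background well, and 0 spots were saturated. The single Cyp26b1 probe gave signal on all 6 arrays, at log2 levels of 3.83 to 4.96 over the 75th percentile. Where this probe lies relative to the deleted part is not known here, so it does not check the knockout. RNA came from whole gonads, in which fewer cells of a type and less RNA per cell cannot be told apart.

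Primordial germ cells are set aside in the mouse embryo by a small group of transcription factors. PRDM1, also called BLIMP1, represses the somatic programme, PRDM14 maintains the pluripotency programme, and TFAP2C, an AP-2 factor, acts with both. TCL1 is a coactivator of the kinase AKT, TDH is the mitochondrial threonine dehydrogenase of mouse stem cells, and DPPA3, also called Stella, protects DNA methylation in the early embryo. KIT is the receptor tyrosine kinase on germ cells, and KITL, or stem cell factor, is its ligand, made by the supporting somatic cells. CYP26B1 breaks down retinoic acid in the fetal testis, where its loss lets male germ cells enter meiosis early.

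RefSeq promoter windows were held for Prdm1, Tcl1, Kit and Kitl. They are shown because these genes differ in their course over the stages, Prdm1 lower at both steps, Kit and Kitl set apart at the first and Tcl1 at the second. Each window runs 5′ to 3′ on the gene's strand, from 250 bases before to 50 bases after the annotated start, in build GRCm38.p6. The windows are chr10:44458699-44458998 on the minus strand for Prdm1, chr12:105222688-105222987 on the minus strand for Tcl1, chr5:75574737-75575036 on the plus strand for Kit and chr10:100015571-100015870 on the plus strand for Kitl. Capitals mark the letters of motifs that were found.
Prdm1: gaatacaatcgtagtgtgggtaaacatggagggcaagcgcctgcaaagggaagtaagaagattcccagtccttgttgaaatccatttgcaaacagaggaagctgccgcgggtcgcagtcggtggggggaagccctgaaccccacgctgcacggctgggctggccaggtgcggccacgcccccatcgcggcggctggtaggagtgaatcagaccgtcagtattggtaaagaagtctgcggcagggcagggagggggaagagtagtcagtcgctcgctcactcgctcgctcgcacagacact
Tcl1: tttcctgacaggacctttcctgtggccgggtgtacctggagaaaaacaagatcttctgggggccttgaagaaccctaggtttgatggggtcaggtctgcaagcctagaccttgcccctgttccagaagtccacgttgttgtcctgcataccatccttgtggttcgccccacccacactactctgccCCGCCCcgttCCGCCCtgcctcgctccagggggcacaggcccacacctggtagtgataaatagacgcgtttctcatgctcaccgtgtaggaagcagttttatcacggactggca
Kit: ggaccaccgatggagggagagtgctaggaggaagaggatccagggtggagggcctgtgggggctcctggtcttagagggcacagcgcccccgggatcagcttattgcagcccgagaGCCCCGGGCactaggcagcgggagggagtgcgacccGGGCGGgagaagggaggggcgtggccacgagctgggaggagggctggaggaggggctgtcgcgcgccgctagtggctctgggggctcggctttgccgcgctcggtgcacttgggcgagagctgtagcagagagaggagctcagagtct
Kitl: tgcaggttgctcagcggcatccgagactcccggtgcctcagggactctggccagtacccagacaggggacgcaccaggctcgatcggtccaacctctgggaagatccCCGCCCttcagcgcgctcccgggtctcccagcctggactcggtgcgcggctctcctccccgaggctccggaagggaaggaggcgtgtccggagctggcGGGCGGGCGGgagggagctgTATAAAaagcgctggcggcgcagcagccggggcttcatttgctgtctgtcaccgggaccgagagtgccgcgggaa

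The motifs searched on both strands were the AP-2 letters GCCNNNGGC, held by 16.6% of 32851 RefSeq mouse promoter windows of the same length, the GC box GGGCGG (35.7%), TATAAA (13.6%), the BLIMP1 core GTGAAAG (4.24%), the octamer ATGCAAAT (1.74%) and the PRDM14 letters GGTCTCTAA (0.256%). The Kit window held 1 AP-2 match, at position -134 from the start, and 1 GC box at -98. The Tcl1 window held 2 GC boxes on the opposite strand, at -64 and -54. The Kitl window held 3 GC boxes, at -143 on the opposite strand and at -45 and -41, of which the last 2 overlap. It also held TATAAA at -25. The Prdm1 window held no match to any of the 6. The windows held 20 CpG dinucleotides for Prdm1, 11 for Tcl1, 20 for Kit and 28 for Kitl, beside a median of 7 over all windows. A match is a description of these letters and not a site that was measured.

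Between E12.5 and E14.5 the signals of 6 of the 7 measured genes were lower on both E14.5 arrays than on either E12.5 array, and Dppa3 was the exception. Over all genes tested, 35.9% were lower without overlap in this comparison. For E13.5 against E12.5, 5 of 7 were lower without overlap (Tfap2c, Prdm1, Tdh, Kit and Kitl), beside 32.3% of all genes. For E14.5 against E13.5, 5 of 7 were lower without overlap (Tfap2c, Prdm1, Tcl1, Tdh and Dppa3), beside 28.5% of all genes. Since the genes were chosen on these differences, nothing is read from the counts. Levels below are log2 signals relative to each array's 75th percentile, so 0 is the signal of that percentile, and levels of different probes are not set against each other. Differences are later minus earlier stage means, with the SE of limma's fit over all 6 arrays and n = 2 arrays per stage.

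**Figure D1:**
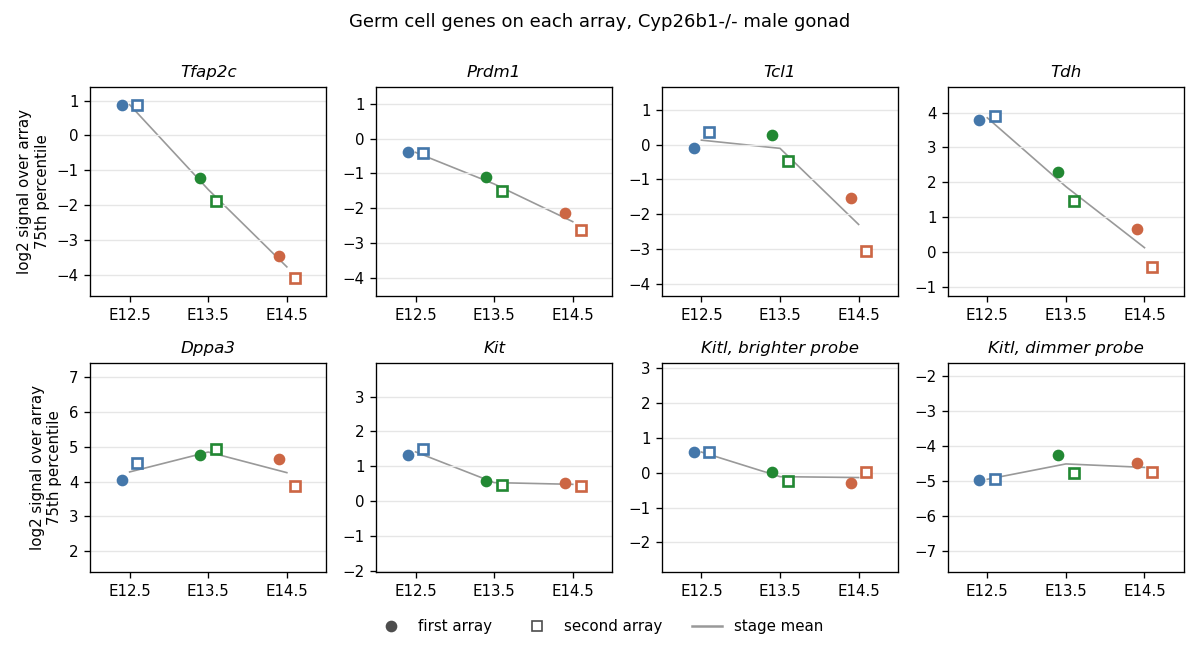
Log2 signal over the array's 75th percentile (vertical axis, the same 6-unit span in every panel) at E12.5, E13.5 and E14.5 for each measured probe. Filled circles are the first array and open squares the second array of a stage, and the grey line joins the stage means. Tfap2c is at 0.88 on both E12.5 arrays and at -3.45 and -4.08 on the E14.5 arrays, whereas Dppa3 lies between 3.87 and 4.94 throughout.

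Tfap2c had the lowest difference of the group. Its log2 level was 0.88 and 0.88 on the E12.5 arrays, -1.21 and -1.89 on the E13.5 arrays, and -3.45 and -4.08 on the E14.5 arrays. The 3 stages did not overlap, and the highest E14.5 array lay 1.57 below the lowest E13.5 array. The E14.5 mean was 25.1-fold lower than the E12.5 mean (log2 difference -4.65 ± 0.28), and 4 of the 13484 genes had a lower difference. Taken singly, the first E14.5 array was 20.2-fold lower than the E12.5 mean and the second 31.2-fold lower. The difference divided almost evenly over the stages, with -2.43 ± 0.28 at E13.5 against E12.5, or 52.2% of the whole, and -2.22 ± 0.28 at E14.5 against E13.5. Every array, the dimmest included, had it well above background. In the authors' deposited table, whose ratio is against a reference that is not stated, the same probe had ratios of 4.2 for E12.5, 0.838 for E13.5 and 0.165 for E14.5.

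Prdm1, the repressor that acts with Tfap2c, had the same shape at a smaller size. Its log2 level was -0.39 and -0.40 in the E12.5 pair, -1.10 and -1.50 in the E13.5 pair, and -2.13 and -2.63 in the E14.5 pair. No stage overlapped another, and each later stage was lower than the one before. The E14.5 mean was 3.97-fold lower than the E12.5 mean (-1.99 ± 0.21). The first step was -0.90 ± 0.21, or 45.4% of the whole, and the second -1.09 ± 0.21. The first E14.5 array was 3.34-fold and the second 4.72-fold lower than the E12.5 mean.

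Tcl1 differed from these in timing and in the spread of its duplicates. Its log2 level was -0.11 and 0.36 in the E12.5 pair, 0.26 and -0.48 in the E13.5 pair, and -1.54 and -3.04 in the E14.5 pair. The E12.5 and E13.5 arrays overlapped, and both E14.5 arrays were below all 4 earlier ones. The mean difference was -0.23 ± 0.51 at E13.5 against E12.5, or 9.66% of the whole, and -2.18 ± 0.51 at E14.5 against E13.5. The E14.5 mean was 5.33-fold lower than the E12.5 mean (-2.42 ± 0.51), but the first E14.5 array was 3.17-fold and the second 8.97-fold lower. The gap of 1.5 between these arrays was exceeded by 0.497% of all genes. The size of the Tcl1 difference at E14.5 thus depended on the array, with log2 values of -3.17 from the second and -1.67 from the first.

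Tdh, the gene of threonine dehydrogenase, had the second largest difference. Its log2 level was 3.80 and 3.90 in the E12.5 pair, 2.29 and 1.47 in the E13.5 pair, and 0.67 and -0.41 in the E14.5 pair. The stages did not overlap. The E14.5 mean was 13.2-fold lower than the E12.5 mean (-3.72 ± 0.41), with -1.97 ± 0.41 in the first step, or 53.0% of the whole, and -1.75 ± 0.41 in the second. The first E14.5 array was 9.06-fold and the second 19.2-fold lower than the E12.5 mean, a gap between duplicates of 1.08 that 1.31% of all genes exceeded.

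Dppa3 was the gene whose level at E14.5 was not set apart from that at E12.5. Its log2 level was 4.03 and 4.52 in the E12.5 pair, 4.75 and 4.94 in the E13.5 pair, and 4.64 and 3.87 in the E14.5 pair. Both E13.5 arrays were above all 4 others, and the E14.5 arrays enclosed the E12.5 arrays. The difference was 0.58 ± 0.29 at E13.5 against E12.5, -0.59 ± 0.29 at E14.5 against E13.5 and -0.02 ± 0.29 over the whole window. At E14.5 the duplicates lay on either side of the E12.5 mean, at 0.37 for the first array and -0.41 for the second.

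Kit, the receptor, was lower after E12.5, with overlapping arrays at the later stages. Its log2 level was 1.33 and 1.5 in the E12.5 pair, 0.59 and 0.48 in the E13.5 pair, and 0.53 and 0.44 in the E14.5 pair. The E12.5 arrays were above all later ones, and the E13.5 and E14.5 arrays overlapped. The first step was -0.88 ± 0.12, or 94.5% of the whole, and the second -0.05 ± 0.12. The E14.5 mean was 1.91-fold lower than the E12.5 mean (-0.93 ± 0.12). The Kit probe was spotted 10 times on each array, and the SD over its spots was 0.0434 to 0.0603 on the log2 scale, smaller than the gap of 0.17 between the E12.5 arrays.

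Kitl, the ligand, followed the same course on its brighter probe. The log2 level was 0.59 and 0.59 in the E12.5 pair, 0.01 and -0.24 in the E13.5 pair, and -0.29 and 0.01 in the E14.5 pair. The later stages overlapped each other and lay below E12.5. The first step was -0.71 ± 0.15, or 96.5% of the whole, the second -0.03 ± 0.15, and the E14.5 mean was 1.66-fold lower than the E12.5 mean (-0.73 ± 0.15). This probe was also spotted 10 times, with an SD over spots of 0.0249 to 0.116. The second Kitl probe went the other way, at -4.96 and -4.93 in the E12.5 pair, -4.25 and -4.76 in the E13.5 pair, and -4.47 and -4.74 in the E14.5 pair. Its E14.5 mean was 0.34 above its E12.5 mean, and the mean of both probes gave a whole difference of -0.20, so the direction for Kitl rests on the brighter probe.

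**Figure D2:**
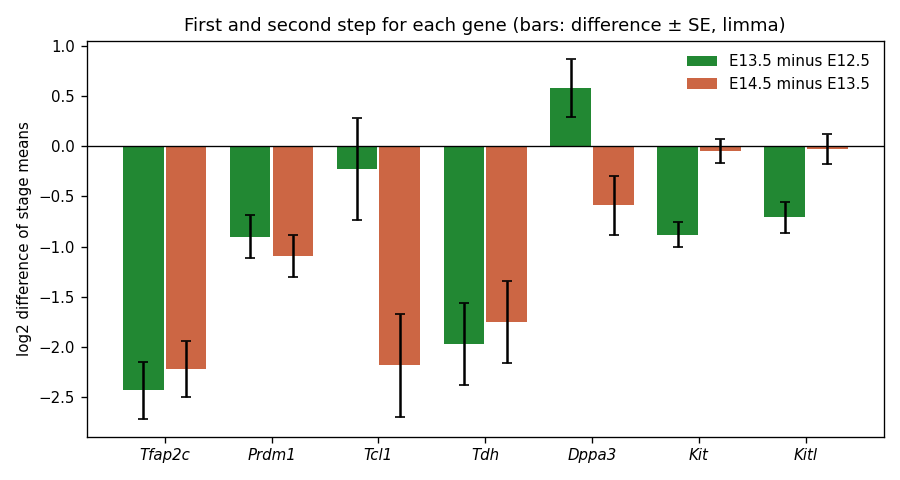
Log2 difference of stage means (vertical axis) for the first step, E13.5 minus E12.5 (green), and the second step, E14.5 minus E13.5 (orange), with SE from limma and n = 2 arrays per stage. Tfap2c, Prdm1 and Tdh have bars of like length in both steps, Tcl1 has -0.23 and -2.18, and Kit and Kitl have -0.88 and -0.71 in the first step and -0.05 and -0.03 in the second.

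These courses over the 3 stages describe 2 arrays each. Tfap2c, Prdm1 and Tdh were lower at each step, Kit and Kitl were set apart at the first step and Tcl1 at the second, and Dppa3 had its highest arrays at E13.5. The first step crosses from one slide to the other, and it holds 94.5% of the Kit and 96.5% of the Kitl difference. The second step lies within a slide, and there the differences were -2.22 for Tfap2c, -2.18 for Tcl1, -1.75 for Tdh, -1.09 for Prdm1, -0.59 for Dppa3, -0.05 for Kit and -0.03 for Kitl. By the difference over the whole window, counted from the lowest of 13484 genes, Tfap2c had rank 5, Tdh 21, Tcl1 96, Prdm1 161, Kit 827, Kitl 1333 and Dppa3 6327.

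The duplicate arrays were also set beside each other gene by gene. The second E14.5 array was lower than the first for 6 of the 7 genes, Kitl being the exception, with a median gap of -0.63. Over all genes tested, 56.8% were lower on the second E14.5 array, with a median gap of -0.04. In a list of 20 other early germ cell genes, 20 were lower on the second E14.5 array (median -0.61, gaps from -1.48 to -0.09), and 18 of the 20 had their lowest value of the 6 arrays there. At E13.5 the second array was lower for 6 of the 7 genes and 19 of the 20, beside 54.2% of all genes. At E12.5 it was lower for 2 of the 7 and 5 of the 20, beside 51.5% of all genes. The 10 measured germ cell markers, which include meiotic genes and share Pou5f1 with that list, were lower on the second array in 7 cases at E14.5 (median gap -0.14), 3 at E13.5 and 2 at E12.5. The gaps were not limited to germ cell genes. Of 8 erythroid markers, 5 were lower on the second array at E14.5 (median gap -0.50), 8 at E13.5 (median -0.42) and 2 at E12.5. Hbb-bh1, an embryonic globin gene, was at 0.50 and -0.94 on the E14.5 arrays. Of 7 markers of haematopoietic progenitors, 6 were lower on the second E14.5 array (median gap -0.17), whereas 0 of 5 fetal Leydig cell markers were lower on the second array at any stage. Genes of 1 array share its RNA, so these counts have no test.

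Most germ cell markers moved upward over the window in which most of the group was lower. The mean log2 level of the 10 measured markers of 11 was 1.69 and 1.87 in the E12.5 pair, 2.92 and 3.13 in the E13.5 pair, and 3.51 and 3.37 in the E14.5 pair. In limma's fit 7 of the 10 rose between E12.5 and E14.5, 2 (Rhox6 and Rhox9) fell and 1, Pou5f1, did not pass. The largest differences were those of Taf7l (5.62), Tex101 (4.23), Sycp3 (3.24) and Stra8. The rise of the list mean rests largely on these, and it does not describe every marker. Ddx4, an RNA helicase of germ cells, rose by 1.05 ± 0.11 (limma, adjusted p = 0.00139), Mael of the piRNA pathway by 1.88 ± 0.14 (adjusted p = 0.000744) and the meiotic entry gene Stra8 by 2.95 ± 0.17 (adjusted p = 0.000507). Dazl rose by 0.84 ± 0.19 on its brightest probe (adjusted p = 0.0149), but its other probe was at -0.29, and it no longer passed when both probes were averaged (adjusted p = 0.25) or when the first array of E12.5 (0.051) or of E14.5 (0.0644) was left out. The part of germ cell number in the values of the group was not tested. Of 8 erythroid markers 4 fell between E12.5 and E14.5 (Hbb-bh1, Hbb-y, Hba-x and Klf1), 1 rose (Hba-a1) and 3 did not pass (median -1.13). Their mean log2 level was 1.85 and 2.10 in the E12.5 pair, 1.42 and 1.03 in the E13.5 pair, and 0.87 and 0.44 in the E14.5 pair, and their part in the values of the group was not tested.

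The genes related by function were taken from 8 lists with 130 entries, of which 114 were tested. The lists were chosen with earlier results of these data known, so their counts and medians are a description with no test of a list. Genes were called at an adjusted p under 0.05 (Benjamini-Hochberg over all 13484 genes), and "rose" and "fell" below mean past it. In the same fit, 25.5% of all genes were higher and 21.2% lower at E14.5 against E12.5. Of the 114 related genes 15 were higher and 44 lower, with a median difference of -0.30 beside 0.03 for all genes. By another scaling, to each array's median, 41.1% of all calls were higher in place of 54.7%, and of the related calls 15.0% in place of 25.4%. At E13.5 against E12.5, 12 were higher and 27 lower, beside 18.1% and 14.0% of all genes. At E14.5 against E13.5, limma called 0 of the 114 (30 had an unadjusted p under 0.05, or 26.3%, beside 18.5% of all genes), and of all genes 0.0445% were called higher and 0.00742% lower. The comparisons with E12.5 carry the slide difference given above.

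**Figure D3:**
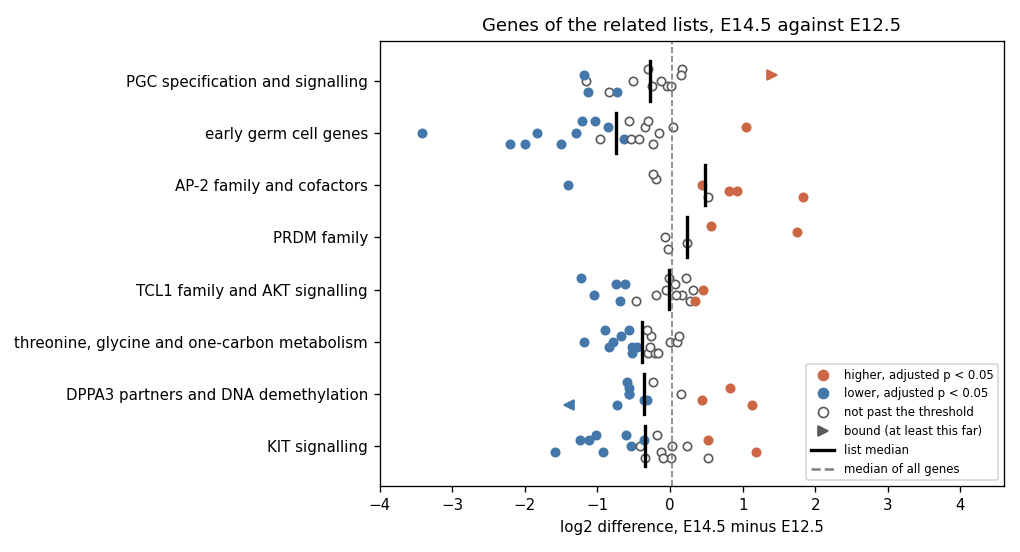
Log2 difference, E14.5 minus E12.5 (horizontal axis), for the 114 tested genes of the 8 related lists. Filled points passed an adjusted p of 0.05 (orange higher, blue lower), open points did not, triangles mark bounds, black lines are list medians and the dashed line is the median of all genes, 0.03. The early germ cell list has its median at -0.74 and the AP-2 list at 0.48.

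Among the 20 other early germ cell genes, 10 fell and 1 rose between E12.5 and E14.5, and the list median was -0.74. The largest falls in this list were those of Tdgf1, a NODAL coreceptor (-3.42 ± 0.31, limma, adjusted p = 0.001, but -1.31 with normexp background correction), the pluripotency factor gene Esrrb (-2.20 ± 0.39, adjusted p = 0.00687), Sox15 (-2.0 ± 0.16, adjusted p = 0.000803) and Dppa2 (-1.84 ± 0.43, adjusted p = 0.0166, but 0.085 without the second E12.5 array). Ifitm3, a surface marker of early germ cells, was the gene that rose (1.05 ± 0.18, adjusted p = 0.00606). Dnd1, an RNA-binding protein that protects germ cells, fell by 0.63 ± 0.17 (adjusted p = 0.0289), a call lost under 4 of 13 alternatives (0.0576 to 0.129). Nanos3 was at -0.43 ± 0.18, Dppa4 at -0.35 ± 0.23, Lin28a at -0.30 ± 0.24, the alkaline phosphatase gene Alpl at -0.24 ± 0.18 and the core pluripotency gene Pou5f1 at -0.15 ± 0.37, and these 5 did not pass, although Nanos3 did (-0.66, adjusted p = 0.0369) once the first E12.5 array was left out. The number that fell was 6 without the first and 4 without the second E12.5 array, and 12 without the first and 5 without the second array of E14.5. The mean log2 level of the list was 0.78 and 1.11 in the E12.5 pair, 0.92 and 0.69 in the E13.5 pair, and 0.39 and -0.35 in the E14.5 pair.

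Genes that specify primordial germ cells were mostly not past the threshold at E14.5 against E12.5. Of 14 tested 1 rose, 3 fell and 10 did not pass (median -0.27), and 6 fell under median scaling. Bmp8b, a BMP ligand needed to form primordial germ cells, was not well above background at E12.5 and was at least 2.64-fold higher at E14.5. The fitted difference was 3.15 ± 0.11 (limma, adjusted p = 0.00021). This p-value uses the E12.5 values that were not well above background, and it does not test the bound. The BMP type I receptor gene Acvr1 fell by 1.13 ± 0.11 (adjusted p = 0.00118), Smad5, which carries the BMP signal, by 0.73 ± 0.14 (adjusted p = 0.00884) and the ligand gene Wnt3 by 1.19 ± 0.38 (adjusted p = 0.045). The Wnt3 call was lost under 6 of 13 alternatives (adjusted p 0.0556 to 0.171).

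Among the relatives and cofactors of Tfap2c, rises outnumbered falls. Of 8 AP-2 family and cofactor genes tested, 4 rose, 1 fell and 3 did not pass at E14.5 against E12.5 (median 0.48). Cited1, a coactivator of AP-2 factors, rose by 1.83 ± 0.16 (limma, adjusted p = 0.001), and Cited2, another, by 0.81 ± 0.12 (adjusted p = 0.00416). Tfap2e rose by 0.93 ± 0.21 (adjusted p = 0.0145, and 0.062 to 0.0701 in the 2 of 13 alternatives that lost it), Wwox, which binds AP-2 factors, was the fourth to rise (0.44 ± 0.12, adjusted p = 0.0265, lost under 6 of 13 alternatives at 0.0537 to 0.159), and Cited4 fell by 1.40 ± 0.21 (adjusted p = 0.00404). Tfap2a was at -0.23 ± 0.16 on its brightest probe and at 0.81 on its other probe, Tfap2b was at 0.53 ± 0.18 (adjusted p = 0.0523) and at -0.21 and -0.17 on its other probes, and neither passed. Tfap2b did pass in limma with normexp (adjusted p = 0.0257), with quantile normalization (0.0195) and without the first E12.5 array (0.0367). Tfap2d was well above background on 0 arrays. The number that rose was 2 without the first E14.5 array. Of the PRDM family, 5 of 13 listed genes were tested. Prdm6, a repressor known from smooth muscle, rose by 1.75 ± 0.17 (adjusted p = 0.00125) and Prdm8 by 0.57 ± 0.17 (adjusted p = 0.0364, lost under 8 of 13 alternatives at 0.0502 to 0.152). The other 3 did not pass.

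Of 17 tested genes of the TCL1 family and AKT signalling, 2 rose, 5 fell and 10 did not pass (median -0.01, with 0.13 under normexp and -0.16 under median scaling). Tcl1b4 of the Tcl1 cluster fell by 1.23 ± 0.20 (limma, adjusted p = 0.00524) and Mtcp1, the other TCL1-type AKT coactivator, by 1.05 ± 0.18 (adjusted p = 0.00601), both between E12.5 and E13.5 for the most part, at -1.16 and -1.12. The Tcl1b4 call was lost with normexp (adjusted p = 0.0617). Tcl1b3 fell as well (-0.62 ± 0.14, adjusted p = 0.0134, lost under 3 of 13 alternatives at 0.0573 to 0.17). The Tcl1b genes are close copies of each other, and whether their probes share signal was not tested. Pik3ca, the catalytic subunit upstream of AKT, fell by 0.75 ± 0.12 (adjusted p = 0.00497). The kinase genes Akt1, at 0.27 ± 0.11, and Akt2, at 0.17 ± 0.12, did not pass the threshold, although Akt1 did with the mean of its probes (0.50, adjusted p = 0.0143). Gsk3b, a kinase that AKT inhibits, rose by 0.35 ± 0.10 on its brightest probe (adjusted p = 0.0359), with -0.78 on its other probe and -0.21 over both, and 8 of the other 12 alternatives lost the call (0.0547 to 0.248). The number that fell was 3 without the second E12.5 array, and none rose (0 in limma) once either E12.5 array, or the second of E14.5, was left out.

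Around Tdh, 9 of 18 tested genes of threonine, glycine and one-carbon metabolism fell between E12.5 and E14.5, 0 rose and 9 did not pass (median -0.39). Mthfd1, a folate enzyme, fell by 1.18 ± 0.16 (limma, adjusted p = 0.00306), Gldc of the glycine cleavage system by 0.89 ± 0.19 (adjusted p = 0.0119, but 0.0539 without the first E12.5 array), Psat1 of serine synthesis by 0.84 ± 0.12 (adjusted p = 0.0036) and the thymidylate synthase gene Tyms by 0.78 ± 0.16 (adjusted p = 0.0102, but 0.0528 without the second E14.5 array). Gcat, whose enzyme acts on the product of TDH, was at 0.00 ± 0.17 (adjusted p = 0.994). The number that fell was 5 once the first E12.5 array was left out, and likewise 5 once the second E14.5 array was.

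For DPPA3, 13 partner and DNA demethylation genes were tested, of which 3 rose, 8 fell and 2 did not pass (median -0.36). Uhrf1, which guides maintenance methylation, fell by 0.73 ± 0.11 (limma, adjusted p = 0.0044). Ehmt2, whose histone mark DPPA3 binds, rose by 0.82 ± 0.11 (adjusted p = 0.00273) and the stress gene Gadd45b by 1.13 ± 0.15 (adjusted p = 0.00299). The third to rise was Apobec1 (0.44 ± 0.11 on its brightest probe, adjusted p = 0.0198), with -0.85 on its other probe and -0.21 over both, and 6 of the other 12 alternatives lost the call (0.0515 to 0.173). The number that fell was 4 without the first and 5 without the second E12.5 array, and 5 without the first and 3 without the second E14.5 array.

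In KIT signalling, 8 of 19 tested genes fell, 2 rose and 9 did not pass at E14.5 against E12.5 (median -0.35). The feedback genes Spry4 and Dusp6 fell by 1.24 ± 0.25 (limma, adjusted p = 0.0105, but 0.053 without the second E14.5 array) and 1.11 ± 0.20 (adjusted p = 0.00706), whereas Spry2, another feedback gene, was at 0.03 ± 0.26 (adjusted p = 0.933). Ptpn6, a phosphatase that dampens KIT, fell by 1.59 ± 0.29 on its brightest probe (adjusted p = 0.00786), with -0.18 on its other probe. The list also held the chemokine gene Cxcl12, which guides migrating germ cells, and its receptor gene Cxcr4. Cxcl12 rose by 1.19 ± 0.13 (limma, adjusted p = 0.00161), whereas Cxcr4 was among the genes that fell (-0.54 ± 0.13, adjusted p = 0.0186, and -1.58 on its other probe). The other gene that rose was the adaptor gene Sh2b2 (0.53 ± 0.11, adjusted p = 0.0125, lost under 2 of 13 alternatives at 0.0535 and 0.0825).

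KIT is also found on blood progenitors, mast cells and melanocytes, so their markers were set beside it. Of 7 tested markers of haematopoietic progenitors 4 fell (Runx1, Gfi1b, Tal1 and Myb), 0 rose and 3 did not pass at E14.5 against E12.5. Their mean log2 level was -0.76 and -0.85 in the E12.5 pair and -1.46 and -1.61 in the E13.5 pair. In the E14.5 pair it was -1.46 and -1.64. Spi1, another listed marker, was well above background on 0 arrays. The part of haematopoietic progenitors in the Kit difference was not tested. Of 5 tested mast cell markers 2 rose, Hdc by 0.46 ± 0.11 (limma, adjusted p = 0.0183, lost under 3 of 13 alternatives) and Cma1 by 0.43 ± 0.12 (adjusted p = 0.0328, but -0.20 over both of its probes, and lost under 8 of the other 12 alternatives), and 0 fell. The protease gene Cpa3 was at 0.34 ± 0.40 (limma, adjusted p = 0.508, but 0.0268 with normexp). Mcpt4, Tpsb2 and Ms4a2, also listed as mast cell markers, were well above background on 0 arrays. Of 3 tested melanocyte markers 2 fell and 1 rose. Dct, a melanin enzyme gene, was at log2 levels of 1.43 and 0.86 in the E12.5 pair, -0.69 and -0.95 in the E13.5 pair, and -1.5 and -1.69 in the E14.5 pair, and it fell by 2.74 ± 0.21 (limma, adjusted p = 0.000744). Mitf fell by 0.59 ± 0.19 (adjusted p = 0.0426, lost under 8 of 13 alternatives at 0.0663 to 0.698), and Pmel rose by 1.29 ± 0.18 (adjusted p = 0.00326). The mean log2 level of these 3 was -1.98 and -2.34 in the E12.5 pair, -2.73 and -2.83 in the E13.5 pair, and -2.76 and -2.92 in the E14.5 pair, while the pigment genes Tyr and Tyrp1 were well above background on 0 arrays. The part of mast cells and melanocytes in the Kit difference was not tested. Of 10 Sertoli cell markers, set beside Kitl because these cells make it, 2 rose (Cldn11 and Nr5a1), 2 fell (Sox9 and Fgf9) and 6 did not pass, with mean log2 levels of 1.80 and 1.76 in the E12.5 pair, 1.76 and 1.72 in the E13.5 pair, and 1.66 and 1.62 in the E14.5 pair.

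For Tfap2c, Kit and Kitl, the genes with the most similar profile were found among 6239 genes whose stage means spanned at least 0.5. Likeness was the root mean square difference over the 6 arrays after each gene's own mean was subtracted. For genes with several probes the brightest was used. Nearest to Tfap2c were Umodl1 (0.274), 1700024G13Rik (0.353), Scgn (0.369), the embryonic globin gene Hbb-bh1 (0.375) and Proc (0.514). The first 3 were well above background on 4 of the 6 arrays, so their distances rest in part on values that were not. Nearest to Kit were Hace1 (0.0335), Vrk1 (0.0485), Pnp (0.0519), Arl6 (0.0565) and Serpinc1 (0.057). Other probes of these genes did not all share the course, with whole differences of -0.30 for Hace1, 0.39 for 1 probe of Pnp and 0.09 for Serpinc1, against -0.92, -0.84 and -0.99 on the probes used. Nearest to Kitl were Dyrk1a (0.0553), Usp46 (0.0627), Tnfrsf21 (0.0639), Rybp (0.0688) and Dnaaf6b (0.0711). With median scaling the same 5 genes were found for each of the 3. The distances around Tfap2c were larger than those around Kit and Kitl, and likeness over 6 arrays of 3 stages describes a shared course only.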

How the data were processed

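Total RNA of whole gonads was labelled with Cy3 and hybridised to 1-colour Agilent arrays, per the labels. The deposited scanner files hold a spot intensity from Agilent Feature Extraction 9.5 (9.5.3.1 per the file headers), background-subtracted and not scaled between arrays. The authors also deposited a linear ratio for each probe at each stage, relative to an unstated reference. For 25605 probes above background on all arrays its log2 differences equalled those of the intensities within 0.05 of a constant offset. Intensities were log2-transformed and repeated spots averaged, without outlier flags, and each array's 75th percentile over probes was subtracted. Control spots were left out. Of 41153 probes 23545 were named, through RefSeq accessions. The builds in the file headers differ between the slides, so names came from the later slide's annotation, and from the earlier one's where that gave none. No array coordinates are printed. The brightest probe stood for each of the 5511 genes with several. A gene was tested if both arrays of 1 or more stages were well above background, using limma 3.58.1 in R 4.3.3 (lmFit and eBayes on all 6 arrays, two-sided, 3 residual and 2.96 prior degrees of freedom), and the fit was tested on simulated data. Where a stage was not well above background on either array, the fold is a bound against the lowest signal called above background. With 2 arrays per stage the number of arrays limits every value, and p-values cover the spread between these arrays.

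The members and the related lists were chosen with earlier results of these data known. Named genes are the members, up to 4 genes per related list with the largest change between E12.5 and E14.5 past the threshold, 19 genes fixed by name, and the 5 nearest profiles. A few genes that this rule takes in are counted in their lists but not reported here by name. Genes named to spell out a small count (Wwox, Tcl1b3, Gsk3b, Apobec1, Sh2b2, Spry2, Cxcr4 and cell type markers) were named after values were seen. Promoter windows came from RefSeq, where 4 of the 8 members matched. Alternatives were normexp background correction (offset 50), median and quantile scaling, the mean of all probes, other background filters, another prior, the array number or the slide as a block (replicate block, slide block), the 4 arrays of the compared stages alone, a 2-fold minimum, and each array left out in turn. The slide block was fitted for E14.5 against E13.5 alone and gave the main fit again, with 7 genes called. Slide and E12.5 cannot be told apart, so this block adjusts for no slide difference. Figures were drawn with matplotlib 3.10.9 from tables read with pandas 2.3.3 in Python 3.11.15.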

Additional observations from a re-analysis of the deposited data

How the results depend on the processing

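Of 210 values of the members' stage differences under alternatives, 202 stayed within the spread of their duplicates and 8 moved further. The sign turned in overlapping stages alone, for Tcl1 in the first step, Dppa3 over the whole window and Kitl in the second step. Many of the 210 values had little or no room to move, so the 202 do not measure robustness. Leaving out 1 array cannot shift a stage mean by more than its duplicates differ, and it leaves the other stage means unchanged. The mean of all probes differs from the brightest probe for Kitl alone. Over the whole window the moves beyond the spread of the duplicates were -3.65 for Tfap2c and -1.50 for Prdm1 with normexp, -1.08 for Kit with median scaling and -0.20 for Kitl with the mean of its probes. In the second step Tfap2c was at -1.59 with normexp. Leaving out 1 array gave -4.96 to -4.33 for Tfap2c, -2.24 to -1.74 for Prdm1, -4.26 to -3.18 for Tdh, -3.17 to -1.67 for Tcl1, -1.02 to -0.84 for Kit, -0.88 to -0.58 for Kitl and -0.41 to 0.37 for Dppa3. The cause was not tested.

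Over all genes limma called 4320 at E13.5 against E12.5, 7 at E14.5 against E13.5 and 6297 at E14.5 against E12.5, and of the related genes 39, 0 and 59. With no background filter the first counts were 2873 and 23 (all and related genes). With a 2-fold minimum they were 1165 and 11 at E13.5 against E12.5, and 1923 and 25 at E14.5 against E12.5. For E14.5 against E13.5, normexp gave 400 and 7, median scaling 99 and 1, and a prior with trend and robust estimates 328 and 4. There limma called 0 genes with the mean of all probes (2479 at an unadjusted p under 0.05), with genes above background on all 6 arrays (2438), with no filter (2289) and with 4 arrays only (2551), and quantile scaling called 5, of which 60.0% were higher, beside 85.7% of the 7. Leaving out 1 array gave 1397 to 3969 genes at E13.5 against E12.5, 0 to 42 at E14.5 against E13.5 and 3938 to 5445 at E14.5 against E12.5, and 17 to 41, 0 to 1 and 37 to 51 related genes. The lowest counts came without the second E13.5 array at E13.5 against E12.5, and without the second E14.5 array (all genes) or the second E12.5 array (related genes) at E14.5 against E12.5. A lone array was assumed to vary like the other stages. Arrays of the same number did not deviate together between E12.5 and E13.5 or E14.5 (correlations of -0.0429 and -0.0599). Between E13.5 and E14.5 they did so weakly (0.229), and what those arrays share was not tested. With the replicate block 1 gene was called at E14.5 against E13.5, and the block moved no other count by over 1.5 times. Median scaling moved the median of all genes to -0.12 at E14.5 against E12.5, beside 0.03, and the share of calls that were higher to 41.1%, beside 54.7%.

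Among the related genes named here at E14.5 against E12.5, leaving out the second E14.5 array lost the calls of Wnt3 (adjusted p = 0.115), Dnd1 (0.129), Prdm8 (0.152), Gsk3b (0.136), Wwox (0.111), Tyms and Spry4 in limma. Leaving out an E12.5 array lost those of Wnt3, Dnd1, Prdm8, Gsk3b and Apobec1 (either array), Gldc and Wwox (the first), and Dppa2, Tfap2e and Tcl1b3 (the second), and leaving out the first E14.5 array those of Tfap2e, Wwox, Gsk3b, Apobec1, Tcl1b3 and Sh2b2. With normexp, differences shrank to 0.97 for Bmp8b, -1.31 for Tdgf1, -0.35 for Mtcp1, -0.34 for Tcl1b4 and -0.40 for Spry4. With the mean of all probes, Ptpn6 was at -0.89, and the direction turned for Gsk3b (-0.21), Apobec1 (-0.21) and the mast cell marker Cma1 (-0.20).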
